A study of Mus musculus with 8 samples.

Results

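The amino acid and neurotransmitter transporters were followed in RNA-seq libraries of mouse brainstem (BS), as the carriers of the solute carrier families whose symbols begin with Slc1a, Slc6a, Slc7a, Slc17a, Slc32a or Slc38a and end in a number. Of the 24081 genes measured, 61 symbols fitted, and 58 were kept after Slc6a2, Slc6a4 and Slc6a13 were left out. The 4 KI mice carried Olig2-tv-a-Cre together with hPDGFRA fl/+, p53 fl/fl and Nestin-tv-a, so that a human PDGFRA cDNA in the Rosa26 locus was expressed from a CAG promoter, behind a lox-stop-lox cassette, where Olig2-Cre had been active. The 4 control mice carried Olig2-tv-a-Cre and p53 fl/fl without hPDGFRA, and whether they carried Nestin-tv-a was not stated. Both groups therefore lacked p53 in Olig2-progenitors, and both were of the C57BL/6 strain. All mice were labelled P19, the 19th postnatal day. Olig2-Cre is active in progenitors that give rise to motor neurons as well as to oligodendrocytes (OLs). Whole BS holds many cell types together, but some of those named below, such as Purkinje cells, are not cells of the BS. The groups were compared for the level of each carrier, with the glial carriers set apart from the neuronal ones.

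These carriers move amino acids and amino-acid-like transmitters across membranes, most of them by coupling the movement to a sodium, proton or chloride gradient or to the exchange of another amino acid. In brain tissue, astrocytes clear glutamate, GABA and glycine from the extracellular space and return glutamine to neurons, neurons take up their own transmitters and precursors, and vesicular carriers load glutamate, GABA and glycine into synaptic vesicles. The remaining members supply every cell with amino acids, taurine or creatine, or export amino acids from the lysosome. A read count from whole tissue measures RNA from all cells together, so fewer cells of a type and less RNA per cell cannot be told apart.

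The sequences upstream of 4 members are shown because these are the 2 that rose and the 2 lower ones that kept their call whichever single library was left out. Each run is the 200 bases before a transcription start in the RefSeq table of GRCm38.p6, written 5′ to 3′ on the strand of the gene, with GC boxes in capitals. The positions are chr2:102706238-102706437 (plus strand) for Slc1a2, chr7:35186185-35186384 (plus) for Slc7a10, chr11:120151352-120151551 (minus) for Slc38a10 and chr3:107518019-107518218 (minus) for Slc6a17.
Slc1a2: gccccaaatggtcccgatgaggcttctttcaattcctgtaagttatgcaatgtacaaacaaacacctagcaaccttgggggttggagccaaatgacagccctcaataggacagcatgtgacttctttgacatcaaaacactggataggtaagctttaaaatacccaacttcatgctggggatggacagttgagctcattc
Slc7a10: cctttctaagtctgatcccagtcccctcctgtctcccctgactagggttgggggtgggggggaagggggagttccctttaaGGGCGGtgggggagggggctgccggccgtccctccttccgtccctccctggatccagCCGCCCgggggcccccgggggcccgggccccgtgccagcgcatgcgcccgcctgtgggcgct
Slc38a10: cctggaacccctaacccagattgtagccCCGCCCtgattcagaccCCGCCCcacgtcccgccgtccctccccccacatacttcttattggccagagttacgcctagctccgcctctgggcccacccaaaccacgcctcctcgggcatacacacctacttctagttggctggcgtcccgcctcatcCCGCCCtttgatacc
Slc6a17: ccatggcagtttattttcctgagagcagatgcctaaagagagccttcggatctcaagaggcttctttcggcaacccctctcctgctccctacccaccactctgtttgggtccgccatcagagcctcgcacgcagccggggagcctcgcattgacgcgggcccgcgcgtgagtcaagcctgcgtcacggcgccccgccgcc
The upstream sequences of both genes that rose differ in composition, with a GC content of 45.0% at Slc1a2 and 73.5% at Slc7a10. Slc38a10 and Slc6a17 stood between them, at 63.0% and 63.5%. Another upstream sequence of Slc6a17 in the table, at 107500741 to 107500940, is not shown and had a GC content of 47%. GC boxes (GGGCGG on either strand) numbered 2 at Slc7a10 and 3 at Slc38a10, with none at Slc1a2 or Slc6a17. Of the 32851 upstream sequences of this length in the table, 31.0% hold a GC box. Another 4 motifs were searched on both strands, and none of them occurs in these 4 sequences. They were the NFI half-site TTGGCA (in 9.56% of all upstream sequences), the SOX core ACAAAG (13.3%), the amino acid response element TGATGCAA (0.639%) and the cyclic AMP response element TGACGTCA (1.47%). Of the 58 members, 41 had at least 1 upstream sequence in the table, and 22 of their 62 sequences held a GC box. Counted by gene, 21 of the 41 had a GC box in at least 1 sequence. The count by gene cannot be set against the 31.0%, which is a share of sequences. A match describes the letters and is not a measured site.

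Recovered read totals were 21492789 to 24458589 per KI library and 24816146 to 27716846 per control library, so the KI libraries were the shallower ones. KI replicate 4 stood nearest to the controls. Pdgfra was at 3269 normalized counts in it, against 8939 to 11437 in the other KI libraries and 2565 to 3087 in the controls, and the Rosa26 transcript Gt(ROSA)26Sor was at 328, against 573 to 605 and 82.9 to 93.9. It was also the only KI library with Xist, an RNA of female cells, above 2 counts (8943), while controls 2 and 3 had 4155 and 7792. KI replicate 3 and control replicate 4 were low in the choroid plexus gene Ttr, at 237 and 44.9 normalized counts, against 14985 to 33888 in the other KI and 60505 to 97274 in the other control libraries. The summed level of 10 astrocyte markers was 154888 to 211954 in KI and 109194 to 142687 in control libraries, and 6 of the 10 were called higher. Of 10 oligodendrocyte markers 5 were called lower, of 10 OPC markers 9 were called lower, and of 10 pan-neuronal markers 2 were called higher and 1 lower. Among all genes tested, 12.0% were called higher and 12.4% lower. All 8 libraries held counts of every astrocyte, neuronal, oligodendrocyte and OPC marker. Of 6 forebrain markers 3 were under 10 counts on average. Emx2 and Lhx2 were highest in KI replicate 3 and control replicate 4, the pair low in Ttr. Emx2 stood at 72.4 and 72.3 counts in these, against 0 to 8.46 elsewhere, and Lhx2 at 180 and 136, against 36.5 to 56.2. Neurod6 did not set the pair apart, at 113 and 109 counts against 86.5 to 181. The parts of cell composition and dissection in the results below were not tested.

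Of the 58 carriers, 44 had a mean of at least 10 normalized counts over the 8 libraries and were tested. At an adjusted p of 0.05 in limma, with the adjustment over all 15123 genes tested, 8 of the 44 were called (18.2%), against 24.4% of all genes. The difference between these shares was not tested, and its direction changed with the test and with the libraries used. Called higher in KI mice were 2, Slc1a2 and Slc7a10, where 12.0% of all genes were called higher. Called lower were 6, Slc1a1, Slc6a17, Slc6a6, Slc7a1, Slc7a8 and Slc38a10, where 12.4% of all genes were called lower. In 1 of the 44 every KI library stood above every control, and in 6 every KI library stood below, where the shares of all genes were 12.7% and 12.8%. The median log2 fold change, KI over control, was -0.20 over the 44 carriers (14 positive, 30 negative) and -0.004 over all genes tested. Fold changes here are on the log2(normalized count + 1) scale, which understates those of low genes. The count of carriers called depended on single libraries and on the test. It was 2 without control replicate 2, 3 without KI replicate 2 and 5 without control replicate 3. In these fits 5.87%, 6.62% and 12.4% of all genes were called. Without KI replicate 4 it was 15, where 35.0% of all genes were called. The DESeq2 Wald test on the recovered reads called 16 of the 44 (36.4%), where it called 29.2% of the genes that it gave an adjusted p. All 16 kept the direction they had in limma.

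**Figure D1:**
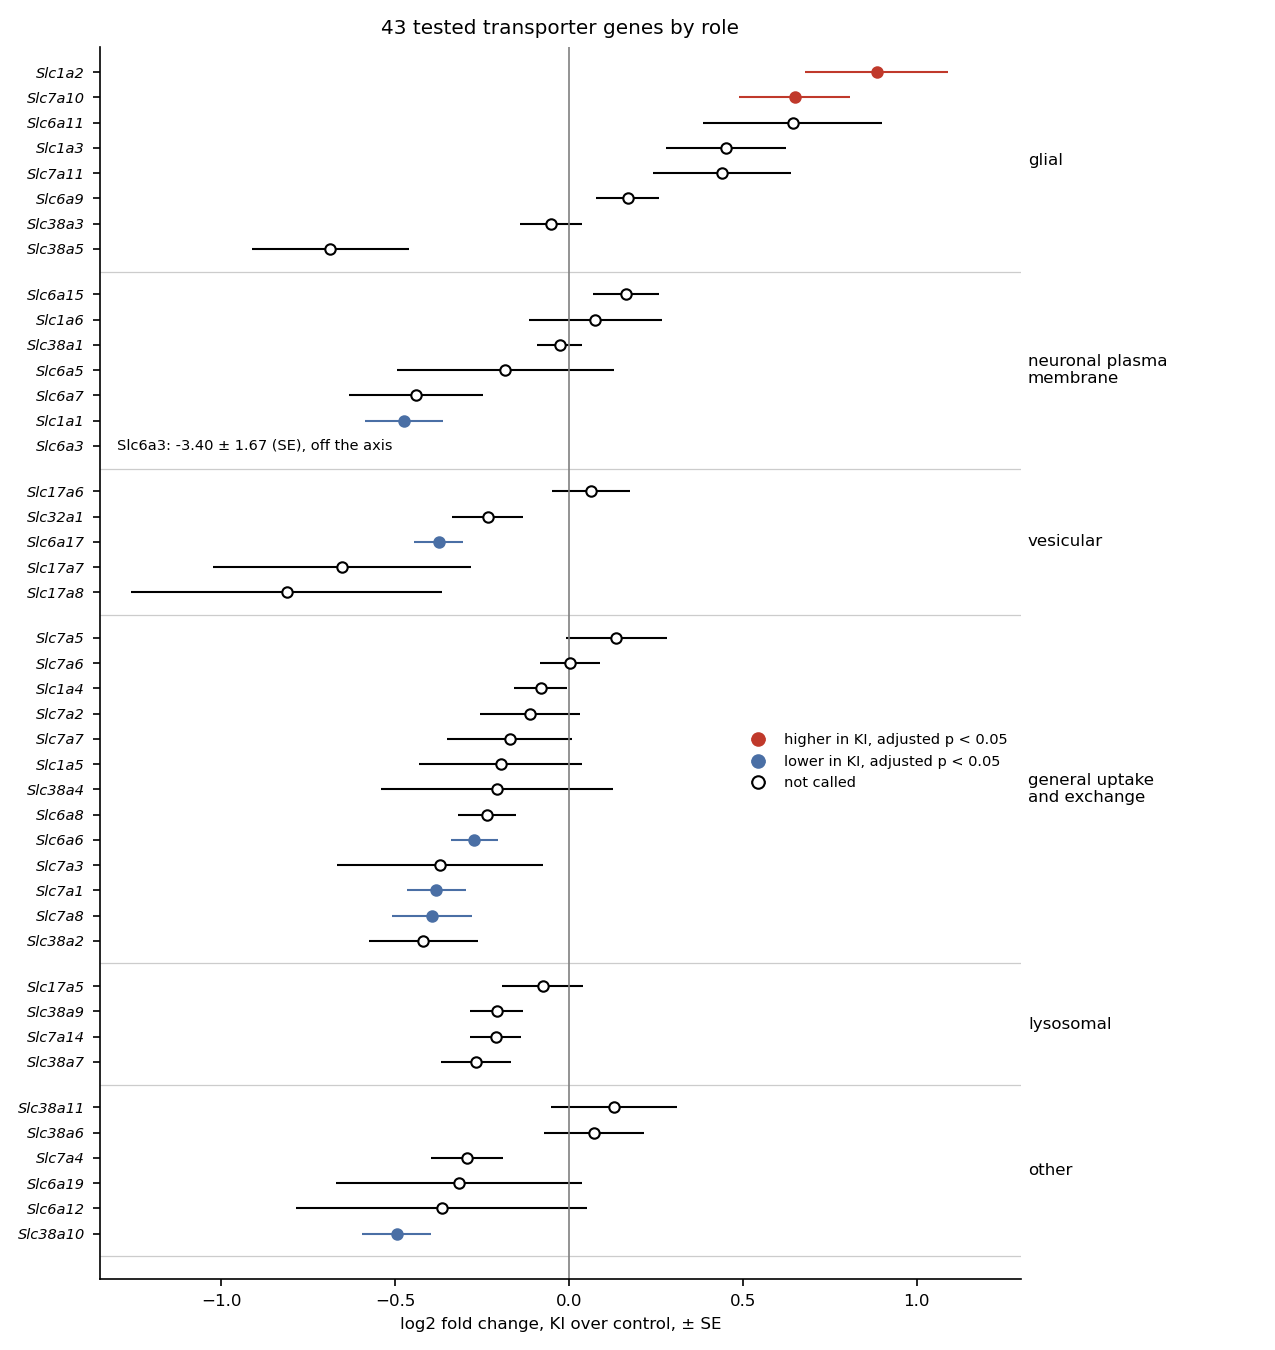
Log2 fold change of KI over control with its standard error for 43 tested carriers, grouped by role, where filled points passed an adjusted p of 0.05 in limma. Both genes called higher are glial carriers, and the 6 called lower are spread over 4 of the other groups; Slc6a3 lies off the axis at -3.40.

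Of 8 glial carriers, all tested, limma called 2 higher and none lower, where it called 12.0% of all genes higher and 12.4% lower. DESeq2 called 4 higher and 1 lower, where it called 29.2% of genes in either direction. In limma 6 of the 8 had a positive log2 fold change, and the median of the 8 was 0.45. Slc1a2, on chromosome 2 (102706438 to 102778106), encodes the main astrocytic glutamate transporter and was the most abundant carrier in the data per length of transcript. It had 125830, 139637, 166230 and 84870 normalized counts in KI replicates 1 to 4, against 64112, 57888, 72433 and 79224 in control replicates 1 to 4. Every KI library was above every control, with KI replicate 4 close above the highest control. The means were 129142 ± 33944 in KI and 68414 ± 9350 in control mice (SD, n = 4 each), a log2 fold change of 0.89 ± 0.21 (SE) with an adjusted p of 0.0183 in limma. The adjusted p was 0.0617 without KI replicate 2 and 0.0620 without control replicate 2, at log2 fold changes of 0.83 and 0.81. Per kilobase of its longest transcript Slc1a2 stood at 11138 normalized counts in KI and 5900 in control mice, ahead of Slc6a11 at 8806 and 5460.

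**Figure D2:**
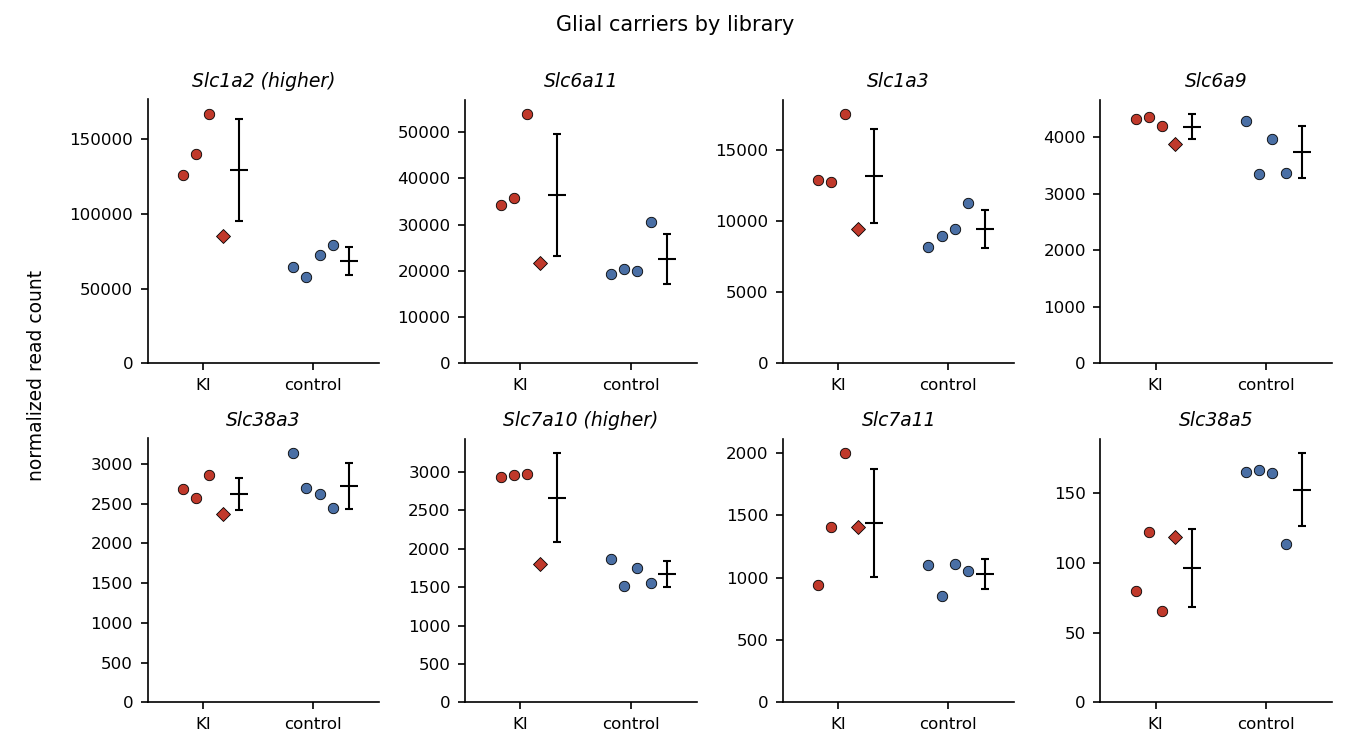
Normalized read counts of the 8 glial carriers in each library, KI at left and control at right, with replicates 1 to 4 in order within a group, KI replicate 4 as a diamond, and the mean ± SD (n = 4) as the bar. The KI points of Slc1a2 lie between 84870 and 166230, above all controls, and those of Slc38a5 lie between 65.1 and 122, below 3 of the 4 controls.

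Slc7a10 was the other carrier called higher. It lies on chromosome 7 (35186385 to 35201111) and encodes an exchanger of small neutral amino acids, glycine and D-serine among them, which has been described in astrocytes and in neurons. Its counts were 2927, 2952, 2969 and 1798 in the KI libraries and 1862, 1516, 1746 and 1548 in the controls. The first 3 KI libraries were nearly equal and well above the controls, while KI replicate 4 lay within the control range. The log2 fold change was 0.65 ± 0.16 (SE), with an adjusted p of 0.0217 in limma, and 0.83 with an adjusted p of 0.000275 without KI replicate 4. The call was lost without control replicate 2 (adjusted p 0.0693), without KI replicates 1, 2 or 3 (0.0593, 0.0700 and 0.0538) and without the pair of libraries low in Ttr (0.0851). Exons of Slc7a10 overlap those of Lrp3 on the other strand, and the counting used neither strand nor ambiguous reads, so reads in the overlap were counted for neither gene. The neighbouring carrier gene Slc7a9, 248 kb away on the same strand, had 0 counts in 7 libraries and 0.985 in the remaining one.

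The other glutamate and GABA carriers of astrocytes had positive fold changes that did not pass the test in limma and passed it in DESeq2. Slc1a3, the second astrocytic glutamate transporter, had 12899, 12715, 17465 and 9455 counts in KI libraries, against 8139, 8953, 9452 and 11261 in controls (log2 fold change 0.45 ± 0.17, adjusted p 0.0860 in limma). Slc6a11, a GABA transporter of astrocytes, had 34286, 35800, 53779 and 21687 counts in KI libraries, against 19246, 20399, 20006 and 30592 in controls (0.64 ± 0.26, adjusted p 0.0961). In both genes KI replicate 3 was the highest KI library and control replicate 4 the highest control, the same pair that was low in Ttr, and KI replicate 4 was the lowest KI library. Without KI replicate 4 both were called, with log2 fold changes of 0.60 and 0.87 and adjusted p-values of 0.0114 and 0.0113 in limma. With all libraries, DESeq2 gave Slc1a3 0.48 (adjusted p 0.0305) and Slc6a11 0.70 (adjusted p 0.0228).

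Slc7a11, the cystine and glutamate exchanger, had 940, 1403, 1996 and 1405 counts in KI libraries and 1104, 850, 1110 and 1050 in controls (0.44 ± 0.20, adjusted p 0.134). Here KI replicate 1 was within the control range, and without it the log2 fold change was 0.63 with an adjusted p of 0.0374. Slc6a9, the glycine transporter of glia, had 4315, 4352, 4200 and 3879 counts in KI libraries and 4288, 3357, 3961 and 3361 in controls (0.17 ± 0.09, adjusted p 0.200). Its groups overlapped, and exons of 3 genes on the other strand overlap its own.

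The glutamine carriers in the glial list did not share the positive sign. Genes were placed in that list by role, and the cells their reads came from were not measured. Slc38a3, which exports glutamine from astrocytes, had 2685, 2569, 2858 and 2376 counts in KI libraries and 3133, 2694, 2617 and 2449 in controls (-0.05 ± 0.09, adjusted p 0.701). Slc38a5, a related glutamine carrier on chromosome X, had 79.8, 122, 65.1 and 118 counts in KI libraries and 165, 166, 164 and 113 in controls. Only control replicate 4 fell among the KI values, and the log2 fold change was -0.69 ± 0.23 with an adjusted p of 0.0531 in limma. The adjusted p was 0.0355 without control replicate 4, 0.0268 without KI replicate 4 and 0.0242 in DESeq2 with all libraries.

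The glial carriers also took a larger share of all carrier counts. Slc1a2 alone made up 44.7, 47.3, 48.9 and 38.7% of the summed counts of the 58 genes in KI replicates 1 to 4, against 31.7, 29.1, 34.7 and 34.8% in control replicates 1 to 4. The 8 glial carriers together made up 57.3 to 73.4% in KI and 48.1 to 56.9% in control libraries, and the groups did not overlap in either measure. The other 7 glial carriers without Slc1a2 made up 21.0 ± 2.5% in KI and 19.7 ± 1.6% in control libraries (SD, n = 4 each), and these overlapped. Slc1a2 exceeded Slc1a3 by 9.81 ± 0.85 times in KI and 7.26 ± 0.64 times in control libraries in counts not corrected for length, and every KI ratio (8.98 to 11.0) was above every control ratio (6.47 to 7.88). These ratios within a library do not depend on its scaling. Set against the summed astrocyte markers, Slc1a2 gave ratios of 0.594, 0.713, 0.906 and 0.548 in KI libraries and 0.489, 0.529, 0.508 and 0.726 in controls, which overlapped.

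**Figure D3:**
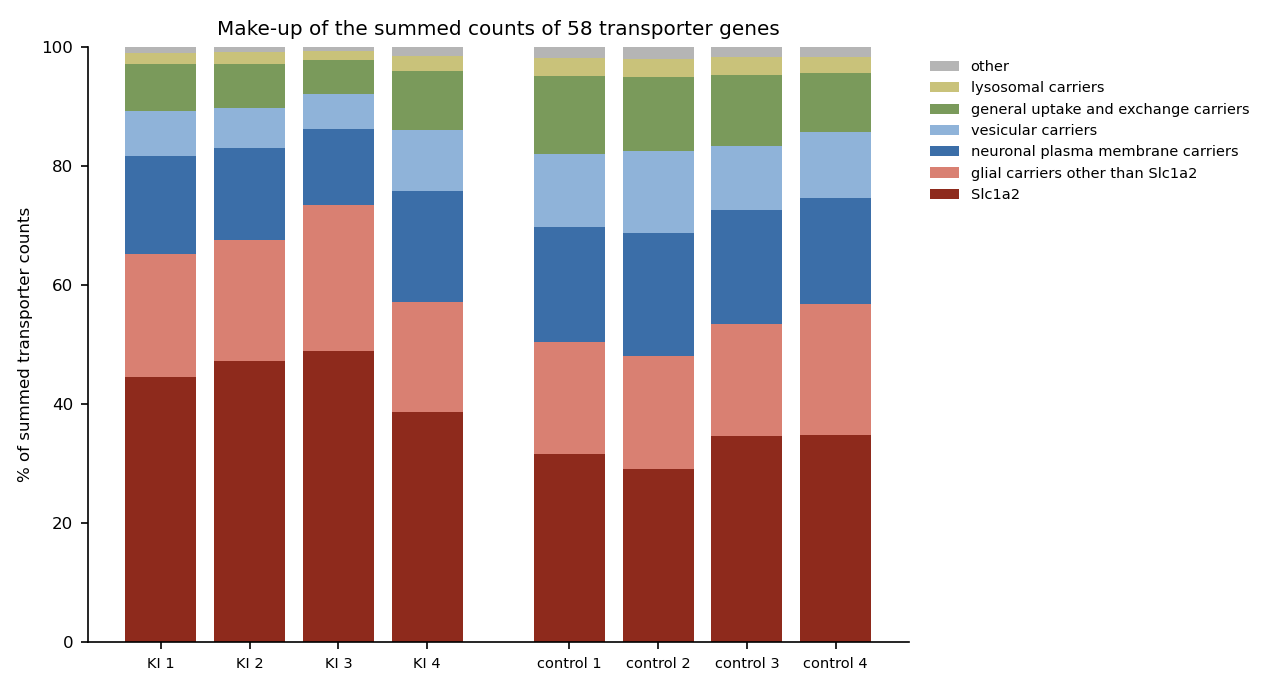
Share of the summed normalized counts of the 58 carrier genes, in percent, taken by Slc1a2 and by each role group in each library, with KI libraries at left and control libraries at right. The Slc1a2 share lies between 38.7 and 48.9% in KI and between 29.1 and 34.8% in control libraries.

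Of 7 plasma membrane carriers of neurons described here, all tested, limma called 1 lower and none higher, against 12.4% and 12.0% of all genes. A positive sign was found in 2 and a negative one in 5, and the median log2 fold change was -0.18. Slc1a1, the neuronal glutamate and cysteine transporter on chromosome 19 (28835166 to 28913960), fell. It had 1510, 1444, 1391 and 1944 counts in KI libraries, against 1917, 2218, 2375 and 2173 in controls. KI replicate 4 lay just above the lowest control, and the other KI libraries lay below all controls. The log2 fold change was -0.47 ± 0.11 (SE) with an adjusted p of 0.0189 in limma. The call was lost without control replicates 2 or 3 (adjusted p 0.0607 and 0.0542), without KI replicate 2 (0.0633) and without the pair low in Ttr (0.0682). Slc1a1 shares exon sequence with 4430402I18Rik on the other strand. Slc1a2 exceeded Slc1a1 by 43.7 to 119 times in KI and 26.1 to 36.5 times in control libraries, in counts not corrected for length.

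Slc6a5, the glycine transporter of glycinergic neurons, had 10923, 11968, 4952 and 13146 counts in KI libraries and 13318, 10939, 13354 and 7274 in controls (-0.18 ± 0.31, adjusted p 0.700). It was lowest in KI replicate 3 and control replicate 4, the libraries low in Ttr. Without KI replicate 3 the sign turned, at 0.14 with an adjusted p of 0.674. Slc38a1, which brings glutamine into neurons, differed little between libraries, with 8666, 9137, 8854 and 9616 counts in KI libraries and 8951, 9867, 9275 and 8856 in controls (-0.03 ± 0.06, adjusted p 0.794).

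Slc6a15, a neuronal carrier of branched-chain amino acids and proline, had 2370, 2331, 1849 and 2182 counts in KI libraries and 1796, 2118, 2054 and 1808 in controls (0.16 ± 0.09, adjusted p 0.232). Slc6a7, the proline transporter of glutamatergic terminals, had 875, 880, 1152 and 850 counts in KI libraries and 1021, 1469, 969 and 1760 in controls (-0.44 ± 0.19, adjusted p 0.122). Slc1a6, the glutamate transporter of Purkinje cells, had 466, 347, 384 and 418 counts in KI libraries and 258, 414, 387 and 510 in controls (0.08 ± 0.19, adjusted p 0.802). In all 3 genes the groups overlapped.

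Slc6a3, the dopamine transporter, differed between libraries more than any other tested member. It had 7.88, 4.46, 5.17 and 9.18 counts in KI libraries, against 6.24, 1577, 5.47 and 504 in controls. The level in controls 2 and 4 stood apart from the other 6 libraries, and the remaining controls lay among the KI libraries. The log2 fold change was -3.40 ± 1.67 (SE) with an adjusted p of 0.164 in limma, while DESeq2 and edgeR gave -6.29 and -6.26 with adjusted p-values of 0.000350 and 0.0337. Th, which encodes the rate-limiting enzyme of catecholamine synthesis, was also highest in controls 2 and 4, at 1170 and 645 counts, against 218 to 272 in the KI libraries and 222 and 233 in the other controls. Dbh, another monoamine neuron marker, was highest in control replicate 2 (859 counts) and lowest of the 8 libraries in control replicate 4 (126). The summed level of 6 monoamine neuron markers, Th and Dbh among them, was 1207 to 3728 in KI and 3008 to 7707 in control libraries. Of the 6, 1 was called lower, Ddc, where 12.4% of all genes were called lower.

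Of 6 vesicular carriers 5 were tested, and limma called 1 lower and none higher, against 12.4% and 12.0% of all genes. Their median log2 fold change was -0.37. Slc6a17, a carrier of neutral amino acids in synaptic vesicles on chromosome 3 (107467548 to 107518018), fell with a small spread. It had 7494, 7528, 7604 and 7672 counts in KI libraries, against 9846, 10861, 8875 and 9792 in controls. No KI library reached the lowest control, and the SD among KI libraries was 79.5 counts, against 811 among controls. The log2 fold change was -0.37 ± 0.07 (SE), or 0.771-fold, with an adjusted p of 0.0117 in limma, and it was called with each library left out (adjusted p 0.00484 to 0.0473). Corrected for GC content and the length of its transcript, the log2 fold change was -0.19 with an adjusted p of 0.0571.

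**Figure D4:**
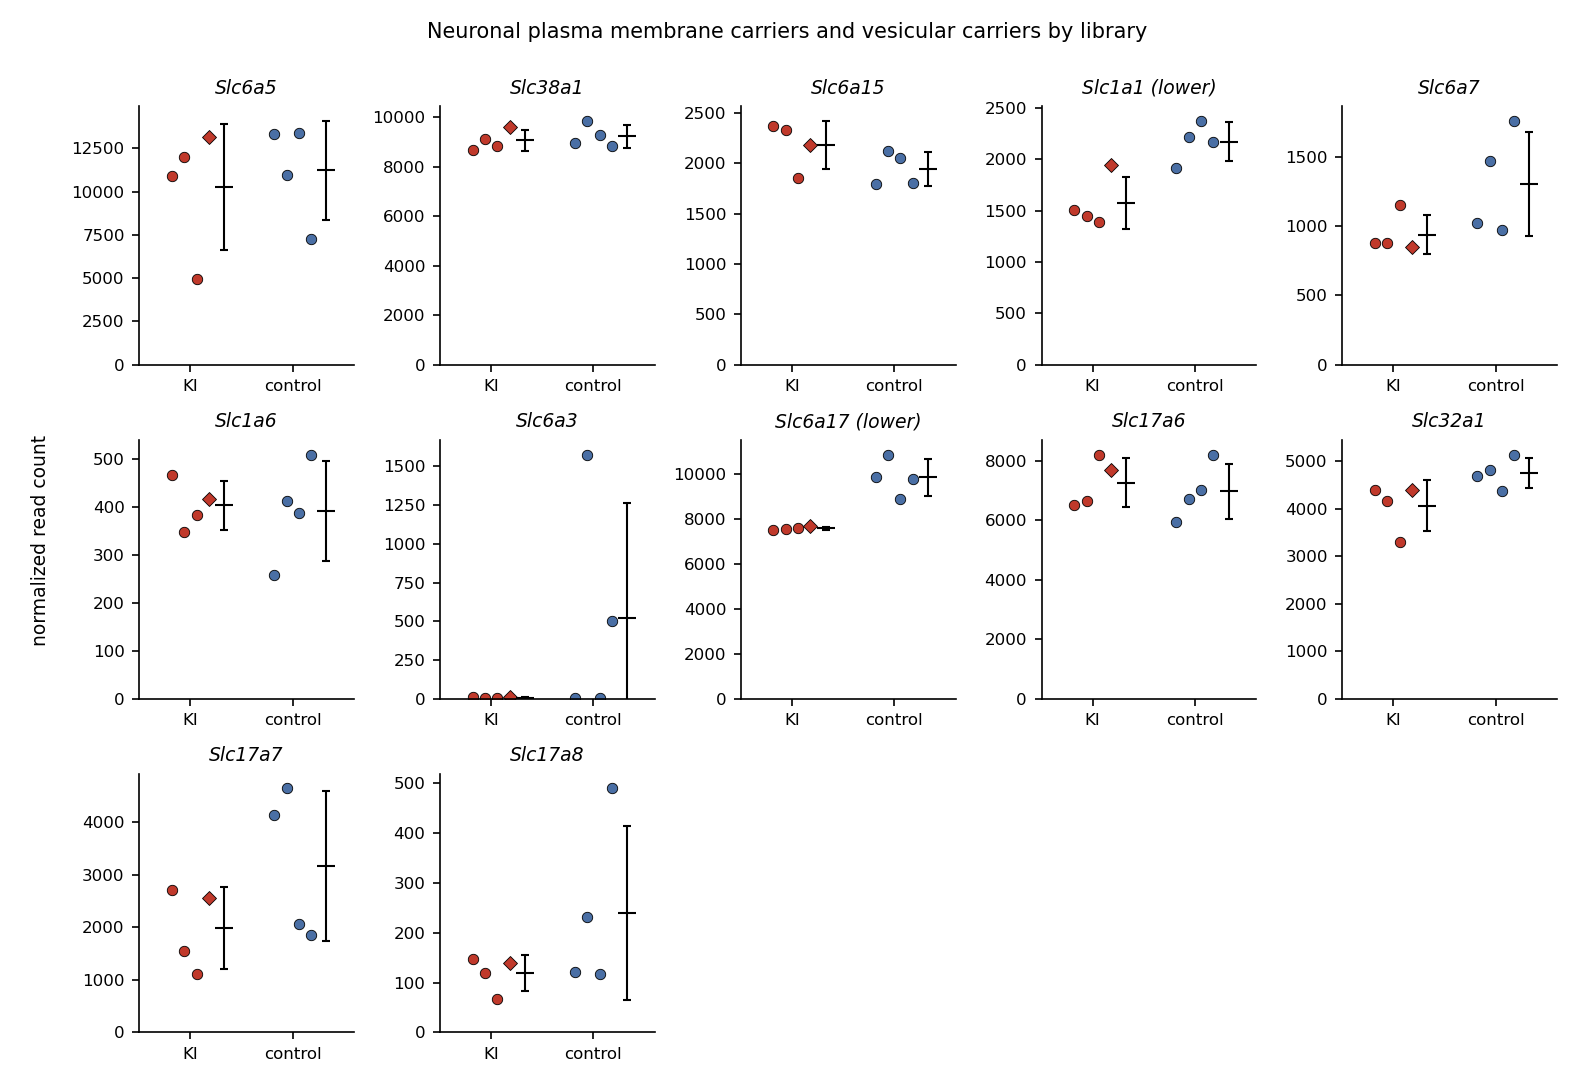
Normalized read counts of 7 plasma membrane carriers of neurons and the 5 tested vesicular carriers in each library, KI at left and control at right, with replicates 1 to 4 in order within a group, KI replicate 4 as a diamond, and the mean ± SD (n = 4) as the bar, cut at 0 for Slc6a3. The KI points of Slc6a17 lie between 7494 and 7672, below all controls, and Slc6a3 is high in control replicates 2 and 4 alone.

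The carriers that load glutamate and GABA did not pass the test. Slc17a6, the vesicular glutamate carrier that prevails in the BS, had 6519, 6632, 8210 and 7684 counts in KI libraries and 5945, 6725, 7002 and 8203 in controls (0.06 ± 0.11, adjusted p 0.718 in limma). Slc32a1, which loads GABA and glycine, had 4401, 4169, 3288 and 4401 counts in KI libraries and 4694, 4824, 4365 and 5139 in controls (-0.23 ± 0.10, adjusted p 0.120). Between Slc6a17 and Slc17a6 the ratio of counts was 1.05 ± 0.11 in KI and 1.43 ± 0.24 in control libraries (SD, n = 4 each), with every KI ratio below every control ratio.

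Slc17a7, the vesicular glutamate carrier of cortical and cerebellar granule neurons, had 2718, 1549, 1112 and 2559 counts in KI libraries and 4138, 4648, 2064 and 1849 in controls (-0.65 ± 0.37, adjusted p 0.224). Slc17a8, the third vesicular glutamate carrier, which some serotonin and cholinergic neurons use, had 148, 119, 67.2 and 140 counts in KI libraries and 120, 231, 118 and 489 in controls (-0.81 ± 0.45, adjusted p 0.212). Both varied more than 2-fold within each group. The summed level of 8 cerebellar granule cell markers was 2271 to 5062 in KI and 1992 to 3678 in control libraries. Of the 8, 0 were called, where 24.4% of all genes were called in either direction. Tph2, the enzyme of serotonin synthesis, ran with Slc17a8, at 936, 913, 79.6 and 521 counts in KI libraries and 1461, 1706, 554 and 2390 in controls, lowest of all in KI replicate 3 and highest in control replicate 4. Slc17a9, the vesicular nucleotide carrier, stood at 0 to 5.17 counts and was not tested.

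Of 13 carriers of general uptake and exchange, all tested, limma called 3 lower and none higher, against 12.4% and 12.0% of all genes. A negative sign was found in 11, and the median log2 fold change was -0.21. Slc7a1, the cationic amino acid carrier that takes up arginine and lysine, on chromosome 5 (148327410 to 148399904), had 1721, 1766, 1394 and 1699 counts in KI libraries, against 2129, 2247, 2188 and 1981 in controls. Every KI library was below every control. The log2 fold change was -0.38 ± 0.08 (SE), or 0.768-fold, with an adjusted p of 0.0164 in limma. The adjusted p was 0.0582 without control replicate 2, and with the correction for GC content and length it was 0.0957 at -0.24.

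Slc6a6, the taurine transporter, on chromosome 6 (91684067 to 91759063), had 2648, 2981, 3089 and 2807 counts in KI libraries, against 3237, 3618, 3536 and 3525 in controls. The groups did not overlap, and the log2 fold change was -0.27 ± 0.07 (SE) with an adjusted p of 0.0215 in limma. The call was lost without control replicates 2 or 3 (adjusted p 0.0726 and 0.0589), without KI replicates 1 or 2 (0.0517 and 0.0558), and with the GC content and length correction (0.123 at -0.14). Exons of Slc6a6 overlap those of Gm44981 on the other strand.

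Slc7a8, a light chain that exchanges neutral amino acids in a complex with Slc3a2, on chromosome 14 (54722215 to 54781886), had 712, 570, 495 and 558 counts in KI libraries, against 705, 831, 812 and 705 in controls. KI replicate 1 lay within the control range and the others below it. The log2 fold change was -0.39 ± 0.12 (SE) with an adjusted p of 0.0369 in limma. This call was the least steady of the 8. It was kept in 9 of 18 alternative fits, and was lost without control replicates 1, 2 or 3 (adjusted p 0.0543, 0.108 and 0.0939) and without KI replicates 2 or 3 (0.0958 and 0.0854). Slc7a5, the other light chain of this kind that is common in brain, had 4276, 3708, 2960 and 2524 counts in KI libraries and 2996, 2893, 2938 and 3187 in controls, and at 0.14 ± 0.15 it had the largest positive value of the group (adjusted p 0.526).

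The largest negative value of the group was that of Slc38a2, a sodium-coupled carrier of small neutral amino acids. It had 4245, 4785, 3985 and 5903 counts in KI libraries and 7845, 6432, 6178 and 4906 in controls (-0.42 ± 0.16, adjusted p 0.0802 in limma). Control replicate 4 was within the KI range, and without it the log2 fold change was -0.54 with an adjusted p of 0.0339. Without KI replicate 4 it was -0.53 with an adjusted p of 0.0200, and DESeq2 called it with all libraries (adjusted p 0.0443). Slc38a2 lies 44.5 kb from Slc38a1 on the same strand of chromosome 15, and the levels of Slc38a1 hardly differed between groups. Slc6a8, the creatine transporter on chromosome X, had 3928, 3822, 3211 and 3769 counts in KI libraries and 4754, 4234, 4415 and 3931 in controls, with no overlap, and missed the threshold (-0.24 ± 0.08, adjusted p 0.0700).

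The remaining 7 of this group, Slc1a4, Slc1a5, Slc7a2, Slc7a3, Slc7a6, Slc7a7 and Slc38a4, had log2 fold changes of -0.37 to 0.003 and overlapping groups. The lowest, -0.37, was that of Slc7a3, a cationic amino acid carrier of neurons, with an adjusted p of 0.387. Among them only Slc1a4, Slc7a2 and Slc7a6 averaged more than 400 counts in both groups.

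The 4 lysosomal carriers all had a negative sign, with a median log2 fold change of -0.21. None of them was called by limma, which called 24.4% of all genes. Slc38a7, which exports glutamine from lysosomes, had 547, 456, 410 and 464 counts in KI libraries and 593, 588, 570 and 504 in controls, and had the largest value of the group (-0.27 ± 0.10, adjusted p 0.0794 in limma). Slc7a14 had 3868, 4216, 3405 and 4073 counts in KI libraries and 4511, 4477, 4596 and 4378 in controls (-0.21 ± 0.07, adjusted p 0.0627). The groups of Slc7a14 did not overlap, and it was called in DESeq2 (-0.20, adjusted p 0.0474). Slc38a9, an arginine sensor of the lysosome, stood at -0.21 ± 0.08 (adjusted p 0.0776), and Slc17a5, the sialic acid exporter, had the value nearest to 0 in the group, at -0.08 ± 0.12 (adjusted p 0.669). Of these 4, Slc7a14 and Slc38a9 were called without KI replicate 4 (adjusted p 0.0400 and 0.0197) and Slc38a7 without KI replicate 1 (0.0428).

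Slc38a10 was the carrier called outside these groups. It encodes a carrier described to transport glutamine and glutamate, and lies on chromosome 11 (120103951 to 120151351). It had 2044, 1918, 1763 and 2497 counts in KI libraries, against 3002, 2854, 2814 and 2834 in controls. All KI libraries were below all controls, with KI replicate 4 the nearest to them. The means were 2055 ± 316 in KI and 2876 ± 86 in control mice (SD, n = 4 each), a log2 fold change of -0.50 ± 0.10 (SE), or 0.709-fold, with an adjusted p of 0.0127 in limma. It was called with each library left out, with adjusted p-values of 0.000426 to 0.0486, and after the correction for GC content and length. Its exons overlap those of Gm11769 on the other strand.

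Of the other 5 tested carriers outside the groups, Slc38a11 had the largest positive value (0.13 ± 0.18, adjusted p 0.639 in limma), while Slc6a12, a betaine and GABA transporter, Slc6a19, Slc7a4 and Slc38a6 had log2 fold changes of -0.37, -0.32, -0.29 and 0.07. Slc7a4 had 496, 496, 500 and 511 counts in KI libraries and 505, 701, 592 and 676 in controls, so that the KI libraries were nearly equal (-0.29 ± 0.10, adjusted p 0.0676). It was called without control replicate 1 (adjusted p 0.0290) and in DESeq2 (0.0460). The 14 carriers under the filter were at or near 0 throughout. Slc38a8, Slc7a15 and Slc1a7, a glutamate transporter of the retina, had the highest means among the 13 of them outside the vesicular group, none above 5.72 counts in either group of libraries. Slc1a7 had 7.88, 3.35, 3.10 and 5.74 counts in KI libraries and 0, 0.940, 1.82 and 2.93 in controls. Its groups did not overlap, but all of these counts are near 0. Slc17a2, Slc17a4, Slc6a18, Slc6a21 and Slc7a12 had 0 counts in all 8 libraries, and the kidney phosphate and urate carrier genes Slc17a1 to Slc17a4 lie next to each other on chromosome 13.

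**Figure D5:**
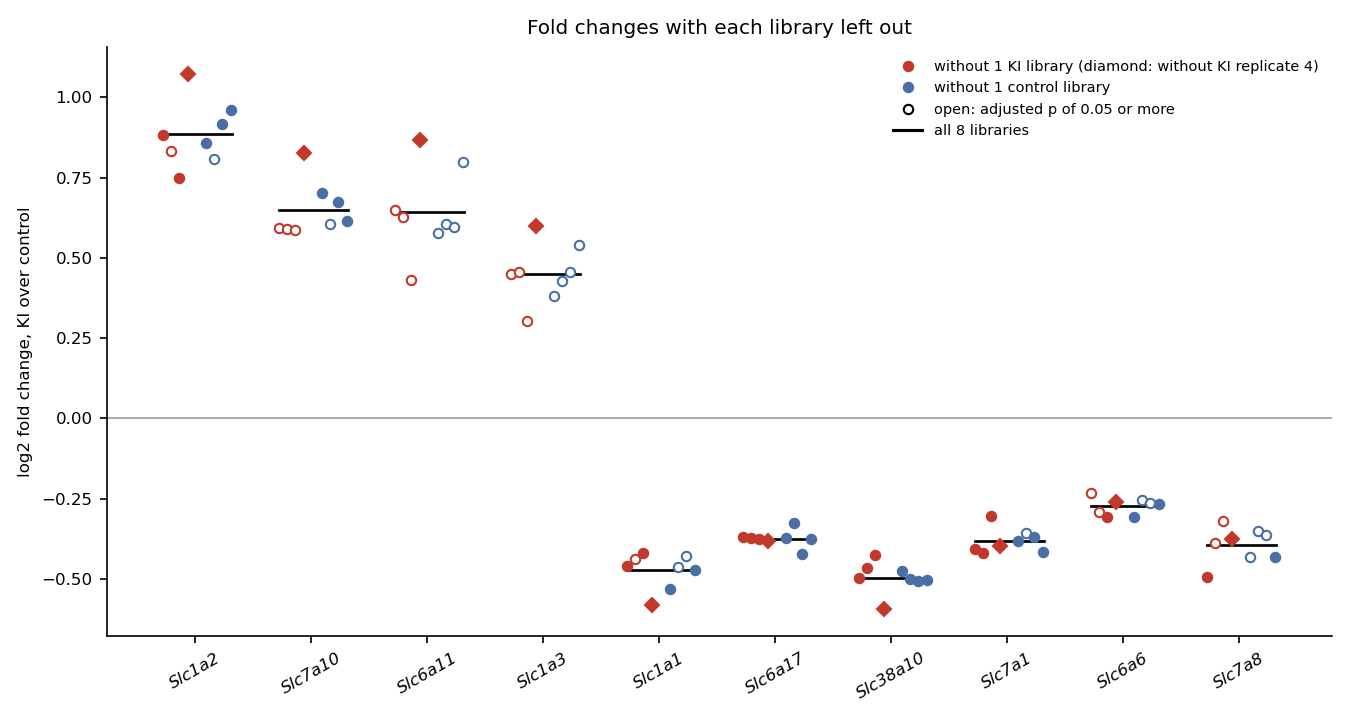
Log2 fold change of KI over control for the 8 called carriers and for Slc6a11 and Slc1a3, with all 8 libraries (line) and with each library left out (points, filled where the adjusted p was under 0.05 in limma). Every point keeps the sign of its line, and the diamonds, without KI replicate 4, are the highest points for Slc1a2 (1.07), Slc7a10, Slc6a11 and Slc1a3.

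KI replicate 4 lay nearest to the control mean in 5 of the 8 called carriers, Slc1a2, Slc7a10, Slc1a1, Slc6a17 and Slc38a10. In Slc6a6, Slc7a1 and Slc7a8 another KI library was nearest. The KI libraries of Slc6a17 were nearly equal, at 7494 to 7672 counts against a control mean of 9843. How often KI replicate 4 was nearest over all called genes was not measured. Without KI replicate 4 the glial carriers called higher numbered 4 of 8, with Slc6a11 and Slc1a3 added. In that fit 35.0% of all genes were called in either direction, against 24.4% with all libraries. Without control replicate 2 or KI replicate 2 the glial carriers called higher numbered 0, where 5.87% and 6.62% of all genes were called. No sign turned among the 8 called carriers in any of the 18 alternative fits.

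Enzymes that make and break down the transmitter amino acids were read beside the carriers. Of 19 such genes, all tested, limma called 5 higher and 2 lower, where 12.0% of all genes were called higher and 12.4% lower, with a median log2 fold change of 0.21. Glul, the astrocytic glutamine synthetase, had 61109, 43793, 78947 and 33363 counts in KI libraries, against 30873, 27114, 26340 and 35905 in controls (0.79 ± 0.24, adjusted p 0.0438 in limma). As in Slc1a2, KI replicate 3 and control replicate 4 were the highest of their groups. Slc1a2 exceeded Glul by 2.47 ± 0.52 times in KI and 2.29 ± 0.31 times in control libraries, with overlapping values. Glud1, the mitochondrial glutamate dehydrogenase, had 15807, 18496, 20173 and 13026 counts in KI libraries, against 10432, 10478, 11492 and 11821 in controls (0.59 ± 0.13, adjusted p 0.0157). Gcsh, a part of the glycine cleavage system, rose by 0.53 ± 0.11 (adjusted p 0.0132), Gpt2, a mitochondrial alanine transaminase, by 0.38 ± 0.12 (0.0448), and Gls2, a glutaminase, by 0.21 ± 0.07 (0.0468). The calls of Glul, Gpt2 and Gls2 were each kept in 7 of 18 alternative fits, and in 2, 1 and 2 of the 8 with a library left out. Those of Glud1 and Gcsh were kept in 15 and 16 of the 18. Got2, the mitochondrial aspartate transaminase, fell by 0.20 ± 0.06 (0.0312), a call kept in 9 of the 18. Shmt1, the cytosolic serine hydroxymethyltransferase that interconverts serine and glycine, had 54.2, 37.9, 44.5 and 86.1 counts in KI libraries, against 99.8, 112, 105 and 91.8 in controls (-0.93 ± 0.24, adjusted p 0.0231), and its call was kept in 10 of the 18. The other 12, the GABA-synthesizing enzymes Gad1 and Gad2 among them, did not pass the test. The number called higher in the list was 0 without control replicate 2, where 5.87% of all genes were called in either direction, and 8 without KI replicate 4, where 35.0% were. The number called lower was 0 without control replicates 1, 2 or 3 and without KI replicates 2 or 3.

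Of 12 partners and other amino acid carriers 10 were tested, limma called 2 higher and 3 lower, against 12.0% and 12.4% of all genes, and the median log2 fold change was 0.06. Slc25a18, a mitochondrial glutamate carrier that is strong in astrocytes, had 3878, 4397, 6947 and 2699 counts in KI libraries, against 2216, 2035, 1915 and 2683 in controls (0.95 ± 0.25, adjusted p 0.0248 in limma). Its relative Slc25a22 had 2321, 2198, 2374 and 2369 counts in KI libraries, against 2925, 3300, 2470 and 2846 in controls (-0.31 ± 0.09, adjusted p 0.0309). The groups overlapped in neither gene, and the signs were opposite. With the correction for GC content and length Slc25a22 stood at -0.13 (adjusted p 0.211), and with a library left out its call was kept in 2 of 8 fits, against 3 of 8 for Slc25a18. Slc36a4, a proton-independent amino acid carrier, rose by 0.39 ± 0.11 (adjusted p 0.0375). Slc36a1, a proton-coupled carrier of the lysosome, fell by 0.25 ± 0.07 (0.0301), and Slc43a2, a carrier of large neutral amino acids, fell by 0.46 ± 0.11 (0.0204). The correction for GC content and length ended both of these calls, at -0.11 (adjusted p 0.237) for Slc36a1 and -0.30 (0.0991) for Slc43a2. Slc3a2, the heavy chain that Slc7a5, Slc7a8, Slc7a10 and Slc7a11 need to reach the membrane, did not pass the test. With single libraries left out, the calls in this list numbered 0 in both directions without control replicate 2 or KI replicate 2, where 5.87% and 6.62% of all genes were called.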

How the data were processed

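BS libraries of 4 KI and 4 control mice were grouped by their labels. According to the methods and the submitters' notes, the authors used STAR 2.7 for alignment to mm10 and counted them per gene with HTSeq, using neither strand nor ambiguous or multiply mapped reads. The deposited signal is this count divided by a DESeq2 size factor for the library. Undoing the division gave whole reads for 100% of values, within 0.01, and on these reads DESeq2 called 4417 genes and edgeR 3627. The table also holds the authors' own comparison as log2 fold changes, as scores (standard errors and Wald statistics) and as p-values, none of which was used here. Its 24709 lines held 24081 genes once 628 repeats were dropped, and another line had been emptied for this work.

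Genes that averaged 10 or more normalized counts over the 8 libraries were fitted on log2(count + 1) by limma 3.58.1 with a variance trend, in R 4.3.3. P-values were adjusted by Benjamini and Hochberg over the 15123 genes tested. The 18 alternative fits were TMM scaling, DESeq2 1.42.0 and edgeR 4.0.16 on the recovered reads, no filter, pseudocounts of 0.1 and 10, a block for the replicate number, Xist on the log2 scale as covariate, removal of the 2 libraries low in Ttr, a lowess correction of each library's deviations from the gene mean for GC content and transcript length (span 0.3), and each library left out. The code was tested on simulated counts. Deposited gene starts count from 0 and were moved by 1 base. Coordinates are those of mm10, and exon overlaps, GC content and transcript lengths are from GENCODE M21 (GRCm38).

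One of the tested carriers enters the counts over all carriers and is not reported here. Members and lists were chosen with earlier results of these data known. By the rule for naming genes, values per library were given for called carriers and for tested glial, neuronal plasma membrane and vesicular carriers. The other role lists were to be represented by their extremes in each direction, and the enzymes and partners by those called. Slc6a8, Slc7a14, Slc7a4, Slc1a7, Th, Tph2, Dbh, Emx2, Lhx2, Neurod6 and the carriers named by their fold change alone were added after their values were seen. Each library was labelled as a sample of its own, and p-values set the difference between groups against the spread of these 8 libraries within their groups.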

Additional observations from a re-analysis of the deposited data

Results flagged for a closer look

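In 4 of 88 groups checked, each of 4 libraries of one carrier, a single library lay farther from the others than Dixon's 95% critical value allows. About 1 in 20 such groups would be picked out by chance, a share that 4 of 88 does not exceed. Slc6a11 was at 30592 normalized counts in control replicate 4, above the 19246 to 20399 of the other controls. Slc38a5 was at 113 in the same library, below the 164 to 166 of the other controls. Slc6a7 was at 1152 in KI replicate 3, above the 850 to 880 of the other KI libraries. Control replicate 4 and KI replicate 3 are the libraries low in Ttr. Slc7a10 was at 1798 in KI replicate 4, below the 2927 to 2969 of the other KI libraries, and this is the KI library with the lowest Pdgfra and Gt(ROSA)26Sor levels.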

How the results depend on the processing

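Over all genes tested, limma called 3685. The count was 2210 with log2 Xist as a covariate, 1836 without the 2 libraries low in Ttr, 2435 with the correction for GC content and length, 0 with a replicate block, and 888 (without control replicate 2) to 5296 (without KI replicate 4) with each library left out. Of the carriers 8 were called, against 16 by DESeq2, 5 without the 2 libraries low in Ttr, 4 with the correction for GC content and length, 0 with the block, and 2 (without control replicate 2) to 15 (without KI replicate 4) with each library left out. The edgeR test called 9 carriers. With the block, 5087 genes and 15 carriers had an unadjusted p under 0.05 in limma, and the 8 called carriers had adjusted p-values of 0.0559 to 0.0976 at the same fold changes. The numbers were not taken to pair the mice. Deviations of equal-numbered libraries from their group means correlated at 0.26, -0.12, -0.46 and -0.36 for replicates 1 to 4. KI replicates 2, 3 and 4 correlated best with control replicates 3, 4 and 3. The highest correlation, 0.58, was that of KI replicate 3 with control replicate 4, the pair low in Ttr.

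Signs turned only in carriers that were not called. The correction for GC content and length gave 0.028 for Slc38a3, 0.089 for Slc38a1, 0.0095 for Slc1a4 and -0.19 for Slc38a11, and the Xist covariate gave 0.018 for Slc38a1 and 0.014 for Slc17a5. With each library left out, log2 fold changes ranged over -0.10 to 0.017 for Slc38a3, -0.38 to 0.14 for Slc6a5, -0.055 to 0.0057 for Slc38a1, -0.11 to 0.22 for Slc1a6, -0.011 to 0.14 for Slc17a6, -0.050 to 0.060 for Slc7a6, -0.40 to 0.0024 for Slc38a4 and -0.034 to 0.17 for Slc38a6. The causes were not tested. Over the 44 tested carriers and 18 alternatives, 720 values kept their sign and their side of the threshold, 35 lost a call, 21 gained one and 16 changed sign. Of the 14 carriers averaging under 10 counts, those with any read entered the fit without a filter and no other. That fit tested 53 carriers and called the same 8 as the main fit.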
